A study of Mus musculus with 3 samples.

Results

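The genes described here are 10 that modify and cross-link collagen: the lysyl oxidase genes Lox, Loxl1, Loxl2, Loxl3 and Loxl4, the lysyl hydroxylase genes Plod1, Plod2 and Plod3, the collagen chaperone gene Serpinh1 and the procollagen processing enhancer gene Pcolce. They were taken by symbol from the 32285 genes in the files, and each of the 10 symbols matched 1 gene. Mandibular condyles, the jaw-side cartilage of the temporomandibular joint, came from wild-type C57BL6 mice and were studied at embryonic day 16.5 (E16.5), the day of birth (P0) and the adult age of 13 weeks (13w). No group carried a transgene or received a treatment. Between 7 and 20 mice were pooled for each age, the tissue was digested (collagenase A, dispase 2), a sort kept cells that were Calcein+ and DAPI-, and each age gave 1 droplet library read from the 3′ ends of polyadenylated RNA. There was therefore 1 library per stage, and a difference between stages has no replicate check.

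Fibrillar collagen is made as a procollagen in the endoplasmic reticulum, where lysyl hydroxylases hydroxylate selected lysines and the chaperone encoded by Serpinh1, also called HSP47, holds the triple helix folded. After export, proteinases of the BMP1 family remove the C-propeptide with the help of the enhancer encoded by Pcolce. The lysyl oxidases, which need copper, then oxidise lysines and hydroxylysines outside the cell, and the products form the cross-links of collagen fibrils and of elastin. Growth cartilage is built mainly on type II collagen with types IX and XI, whereas its fibrous covering and bone hold mainly type I collagen.

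Cells were kept if they had 500 genes or more and no more than 10% of their UMIs (molecules counted once by their barcode) from mitochondrial genes, which left 16589 of 19210 barcodes (4562 cells of E16.5, 3999 of P0 and 8028 of 13w). Cells with at least 3 Col9a1 UMIs per 10,000 (Col9a1-high, by a chain of cartilage collagen IX) numbered 1014, 1746 and 1621, or 22.2%, 43.7% and 20.2% of the kept cells, and 239, 171 and 453 cells lay near that limit, at 2 to 4 UMIs per 10,000. Median depth was 40312, 36410 and 23612 UMIs in Col9a1-high cells and 14937, 11771 and 9547 in the rest (Col9a1-low). The labels call the material condylar cartilage cells. In each library the 10 chondrocyte markers reached at least 10 UMIs per 1000000 (CPM) in the sum of all kept cells, while Col2a1, the gene of type II collagen, stood at 145, 290 and 3189 CPM in Col9a1-low cells, so these cells are described by the rule and not as a cell type. Of 8 fibroblast and surface markers, 7, 6 and 8 also reached 10 CPM in all kept cells. In Col9a1-low cells these markers summed to 6920, 14010 and 36880 CPM, beside 972, 1687 and 6786 CPM for the chondrocyte markers. Markers of blood, endothelial, mural or muscle cells picked out 299, 128 and 440 kept cells, which were 0.69%, 0.92% and 2.04% of the Col9a1-high and 8.23%, 4.97% and 6.35% of the Col9a1-low cells. Each result with these cells left out is compared in the closing section. Between 8 and 14 kept cell barcodes were shared by any pair of libraries.

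The members' levels are UMI sums over the cells of a library, scaled to CPM, with exact 95% Poisson intervals, and ratios have exact conditional binomial intervals. Both cover counting error only. A gene was called higher or lower between a pair of pools when the ratio was at least 2-fold, its interval excluded 1 and the higher pool held at least 10 CPM.

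The first comparison asks which of these genes were higher in cells with Col9a1. Loxl3 and Loxl4 were higher, and Loxl1 lower, in the Col9a1-high cells of all 3 libraries. Lox was called lower in Col9a1-high cells at P0 and higher in them at 13w. Plod1, Plod2 and Plod3 were higher in Col9a1-high cells at E16.5 and P0 and were not called at 13w, and Pcolce was called in no library. The 13w ratio of Plod2 did pass the call with other scaling.

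**Figure D1:**
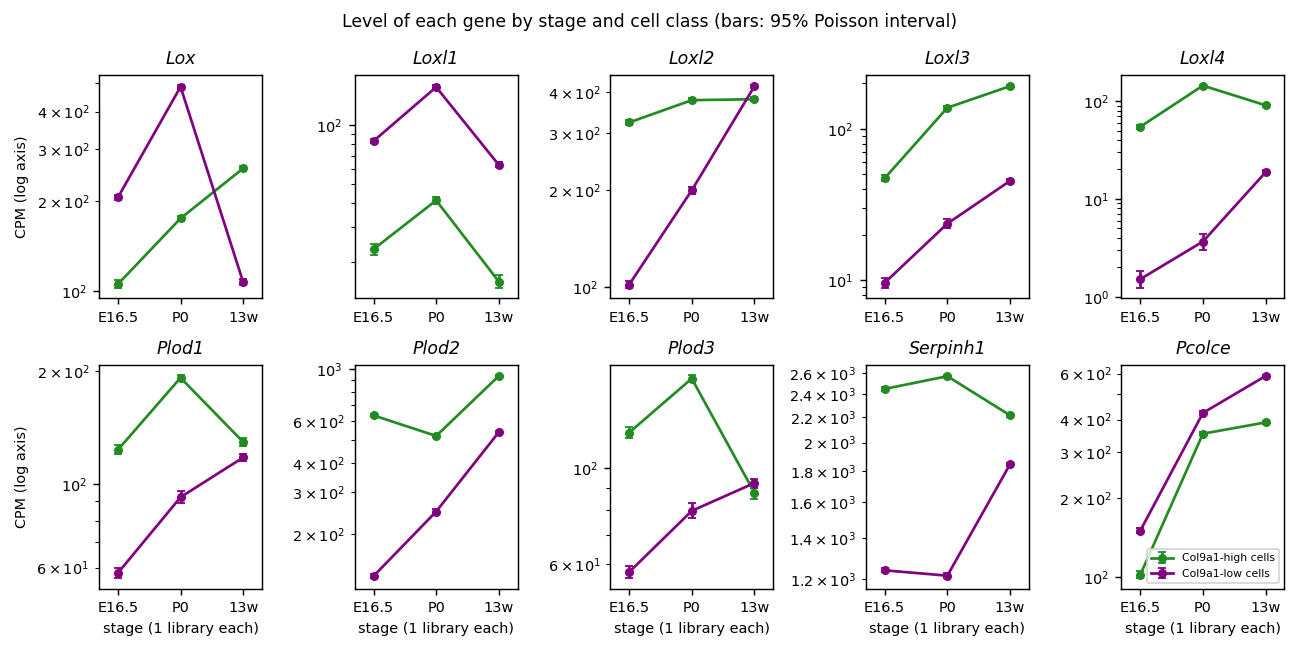
Level of each of the 10 genes in CPM (log axis) at E16.5, P0 and 13w, in Col9a1-high cells (green) and Col9a1-low cells (purple) of 1 library per stage; bars are 95% Poisson intervals. The lines for Lox and Loxl2 cross between P0 and 13w, and those for Loxl3 and Loxl4 stay apart, with Loxl4 at 144 against 3.67 CPM at P0.

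Loxl4 encodes a lysyl oxidase with scavenger receptor domains, which it shares with Loxl2 and Loxl3. It stood at 54.7 CPM (52.4 to 57.1) in Col9a1-high and 1.51 CPM (1.22 to 1.85, 94 UMIs) in Col9a1-low cells at E16.5. At P0 it stood at 144 and 3.67 CPM, and at 13w at 90.6 and 18.7 CPM. The measured ratio was 36.2-fold at E16.5, 39.3-fold at P0 and 4.84-fold at 13w. In the earlier libraries, E16.5 and P0, Loxl4 passed the limit of 10 CPM through Col9a1-high cells alone, so these high ratios rest on very low levels in the other class. Col9a1-high cells held 95.7%, 98.8% and 73.5% of all Loxl4 UMIs, although they held 38.2%, 66.9% and 36.5% of the UMIs of all genes.

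Blood-marker cells were used as a rough gauge of free Loxl4 RNA. Loxl4 stood at 3.48 CPM (1.59 to 6.61, from 9 UMIs) in them at E16.5, and at P0 only 19 such cells were present, too few for a value. The Loxl4 level of Col9a1-low cells at E16.5 was therefore not above that of blood-marker cells. The ratio there rests on this low level, and the part of free RNA in it was not tested. At 13w the blood-marker cells held 15.1 CPM (12.0 to 18.7), but 7.65% of them were Col9a1-high and cells with Prg4, described further on, held 2.17 CPM, so this value is no clean level of free RNA. The 13w Col9a1-low class was also mixed: 96 of its cells with at least 10 Col10a1 UMIs per 10,000 held 469 of its 1346 Loxl4 UMIs, at 218 CPM, and the other cells stood at 12.6 CPM. With each cell thinned to 3000 UMIs, 0.38% of Col9a1-low and 0.68% of blood-marker cells at E16.5 had a Loxl4 UMI, and 3.50% and 3.06% at 13w, against 13.1% and 19.8% of Col9a1-high cells. Median depths before thinning were 14937 and 10189 UMIs for the Col9a1-low and blood-marker cells at E16.5, and 9547 and 8638 at 13w.

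Loxl3 stood at 47.2, 138 and 192 CPM in Col9a1-high cells at E16.5, P0 and 13w, and at 9.63, 23.7 and 45.3 CPM in Col9a1-low cells. Its ratio was similar in the 3 libraries, at 4.91-fold, 5.83-fold and 4.23-fold. Loxl1, the member best known for elastic fibres, went the other way, with 23.2, 41.2 and 15.8 CPM in Col9a1-high and 83.0, 157 and 62.6 CPM in Col9a1-low cells. It was 3.58-fold, 3.81-fold and 3.96-fold lower in Col9a1-high cells, which held 14.7%, 34.7% and 12.7% of its UMIs.

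Lox, which encodes the enzyme that gave the family its name, stood at 105.6 CPM in Col9a1-high and 206 CPM in Col9a1-low cells at E16.5, a log2 ratio of -0.97 that just missed the call and passed it under 3 alternatives. At P0 it stood at 175 and 484 CPM (log2 -1.47, -1.50 to -1.43), and at 13w at 258 and 107 CPM (log2 1.27, 1.23 to 1.31). Col9a1-high cells thus held 42.3% of Lox UMIs at P0 and 58.1% at 13w. Whether the ratios of these libraries differ beyond the spread between mice was not tested, since each stage is 1 library. Loxl2, which also oxidises collagen IV in basement membranes, stood at 323, 378 and 381 CPM in Col9a1-high cells and at 102, 199 and 417 CPM in Col9a1-low cells. The groups were 3.17-fold apart at E16.5, 1.90-fold at P0 (not called) and 1.10-fold at 13w, where Col9a1-low cells were the higher in plain CPM (log2 -0.13) but not with TMM scaling (log2 0.20). At P0 Loxl2 passed the call with TMM (log2 1.19) or median-of-ratios scaling (1.15). It also passed there with cells thinned to 3000 UMIs (1.195) and with levels averaged over cells (1.16).

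Plod2 encodes the lysyl hydroxylase that acts on the telopeptides, the ends of the molecule where cross-links form. It stood at 635, 520 and 932 CPM in Col9a1-high and 133, 249 and 539 CPM in Col9a1-low cells, ratios of 4.78-fold, 2.09-fold and 1.73-fold. The 13w ratio passed the call with TMM (log2 1.12) or median-of-ratios scaling (1.17) and with cells thinned to 3000 UMIs (1.002). Plod1, which hydroxylates lysines of the helix, stood at 124 against 58.0 CPM at E16.5, 192 against 92.4 CPM at P0 and 130 against 118 CPM at 13w. Plod3, whose product also glycosylates hydroxylysine, stood at 121 against 57.4 CPM, 161 against 79.5 CPM and 87.6 against 92.2 CPM. Both genes were just over 2-fold higher in Col9a1-high cells at E16.5 and P0 (between 2.02-fold and 2.13-fold), so these calls lay at the limit. Serpinh1 stood at 2447 against 1239 CPM at E16.5 (1.98-fold, not called), 2567 against 1214 CPM at P0 (2.11-fold, called) and 2216 against 1844 CPM at 13w. At E16.5 Serpinh1 passed the call with TMM (log2 1.30) or median-of-ratios scaling (1.32). It also passed there with thinned cells (1.075) and with levels averaged over cells (1.045). Pcolce was at 102 against 150 CPM, 353 against 424 CPM and 390 against 587 CPM, below 2-fold in each library.

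Counted together, 6 members were higher and 1 lower at E16.5, where 9.29% of 8443 measured genes were called higher and 15.2% lower. Loxl3 (9.63 CPM in Col9a1-low cells) and Loxl4 reached 10 CPM there in the Col9a1-high pool alone, so they could not be called lower. At P0, 6 were higher and 2 lower, with 10.5% and 14.4% of 8222 genes. Loxl4 was again such a member at P0. At 13w, 3 were higher and 1 lower, with 3.79% and 11.0% of 7839 genes. The median log2 ratio of the 10 members was 1.08, 1.04 and 0.20, beside -0.18, -0.10 and -0.31 over all measured genes. With a Col9a1 limit of 10 in place of 3 UMIs per 10,000, 2 members were called higher at P0, since Plod1, Plod2, Plod3 and Serpinh1 then stood below 2-fold.

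The class difference was then tested over the 3 libraries with edgeR's quasi-likelihood test on the 6 summed pools, with library as a block. The p measures how steady the ratio was over the 3 stages, not over animals of 1 stage. Loxl3 (log2 2.61, SE 0.14, adjusted p = 0.0041), Loxl4 (log2 4.56, SE 0.72, adjusted p = 0.016) and Plod2 (log2 1.67, SE 0.32, adjusted p = 0.023) passed the test, with ratios above 1 in all 3 libraries, that of Plod2 being below 2-fold at 13w in plain CPM. The Loxl4 estimate rests on very low levels in Col9a1-low cells at E16.5 and P0. Serpinh1 (log2 1.08, SE 0.19), Plod1 (log2 1.07, SE 0.22) and Plod3 (log2 0.98, SE 0.25) also passed, with edgeR adjusted p of 0.019, 0.026 and 0.044, although in CPM Plod3 was 1.05-fold lower in Col9a1-high cells at 13w (log2 -0.07, and 0.26 with TMM scaling). The Plod3 call was lost when cells with blood, endothelial, mural or muscle markers were left out (log2 0.89), with a Col9a1 limit of 10 (log2 0.76) and with plain totals in place of TMM (log2 0.68), and plain totals also took that of Plod1 (log2 0.76). The fit scales by TMM factors, and in the single libraries such factors moved the class ratios of all genes by 0.27 to 0.33 log2 units above plain CPM.

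Loxl1 was lower in the same test (log2 -1.61, SE 0.13, edgeR adjusted p = 0.0068). Lox (log2 -0.13, SE 0.59, adjusted p = 0.89), Loxl2 (log2 1.13, SE 0.35, adjusted p = 0.069) and Pcolce (log2 -0.17, SE 0.12, adjusted p = 0.36) did not pass. The 6 members higher and 1 lower stand beside 11.3% and 14.9% of the 16564 genes tested. Leaving out the P0 library left 0 members and 0 of 15774 genes called by edgeR (3846 genes and 6 members at an unadjusted p under 0.05). Without the E16.5 library 2 members were called, beside 227 genes higher and 325 lower of 15674. Without the 13w library 9 members were called, beside 3200 genes higher and 3285 lower of 16055. DESeq2 on all 3 libraries called 8 members, beside 2463 genes higher and 2842 lower of 24591.

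**Figure D2:**
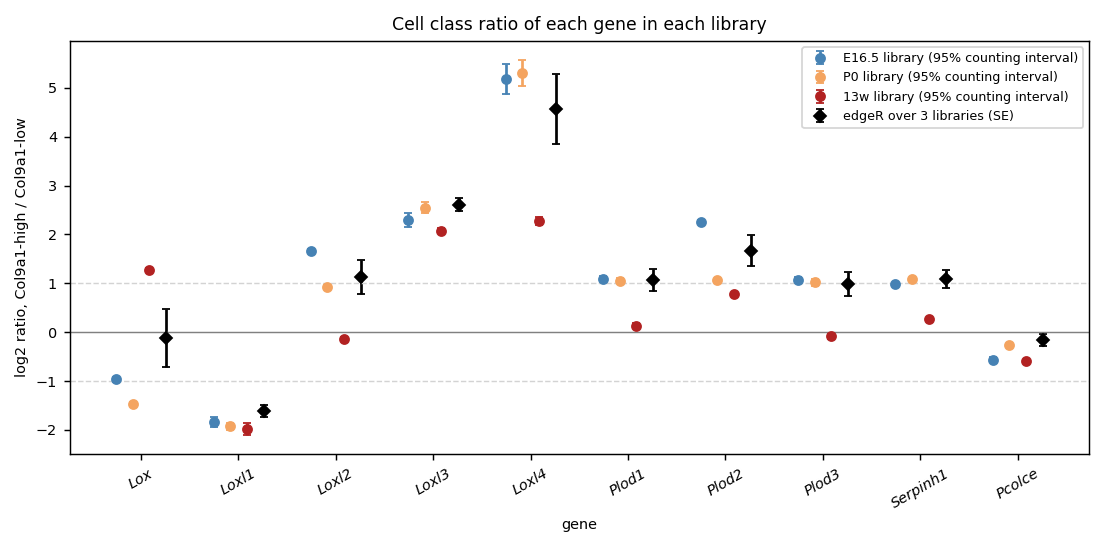
Log2 ratio of Col9a1-high over Col9a1-low cells for each gene in the E16.5 (blue), P0 (orange) and 13w (red) libraries with 95% counting intervals, and the edgeR estimate over the 3 libraries (black, SE); dashed lines mark a 2-fold ratio. Lox lies at -1.47 at P0 and 1.27 at 13w, whereas Loxl1 lies between -1.99 and -1.84 in the 3 libraries.

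RefSeq's promoter table (build GRCm38.p6) holds 5 of the 10 members: Loxl4, Plod1, Plod3, Serpinh1 and Pcolce. The 250 bases before the start are shown for the gene with the highest class ratio, Loxl4, and for Plod1, Plod3 and Serpinh1, whose class ratios lay near each other in each of the 3 libraries. The windows are chr19:42612807-42613056 on the minus strand for Loxl4, chr4:147936777-147937026 on the minus strand for Plod1, chr5:136986769-136987018 on the plus strand for Plod3 and chr7:99353240-99353489 on the minus strand for Serpinh1. Capitals mark ACGTG (a form of the core of hypoxia response elements), AACAAT (a SOX core) or TATAAA (the TATA box). Each is marked as written or as its reverse complement where it lies on the other strand. Other forms of the hypoxia response core were not sought or marked.
Loxl4: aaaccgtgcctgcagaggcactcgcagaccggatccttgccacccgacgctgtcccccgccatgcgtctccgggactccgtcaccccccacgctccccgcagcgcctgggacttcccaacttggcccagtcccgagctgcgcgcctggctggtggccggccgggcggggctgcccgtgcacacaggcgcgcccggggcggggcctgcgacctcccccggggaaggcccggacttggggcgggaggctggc
Plod1: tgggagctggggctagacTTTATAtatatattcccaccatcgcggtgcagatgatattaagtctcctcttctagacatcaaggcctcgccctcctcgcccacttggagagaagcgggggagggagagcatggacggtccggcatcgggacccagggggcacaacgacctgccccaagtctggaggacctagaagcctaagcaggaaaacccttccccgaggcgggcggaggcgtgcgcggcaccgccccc
Plod3: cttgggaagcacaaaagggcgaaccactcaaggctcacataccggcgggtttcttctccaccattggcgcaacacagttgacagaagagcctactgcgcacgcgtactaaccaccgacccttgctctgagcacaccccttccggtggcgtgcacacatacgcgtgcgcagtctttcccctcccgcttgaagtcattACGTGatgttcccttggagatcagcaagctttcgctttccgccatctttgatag
Serpinh1: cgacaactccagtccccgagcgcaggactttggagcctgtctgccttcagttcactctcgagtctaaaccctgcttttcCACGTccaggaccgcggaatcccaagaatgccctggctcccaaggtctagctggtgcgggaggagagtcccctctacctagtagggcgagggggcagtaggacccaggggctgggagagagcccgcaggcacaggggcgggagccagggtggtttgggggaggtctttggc

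ACGTG was found in the windows of Plod3, starting 54 bases before the gene's start, and Serpinh1, starting 171 bases before it on the other strand. Of 32851 windows of the same length, 16.6% held ACGTG. The Plod1 window held TATAAA 232 bases before the start on the other strand (12.4% of windows), and AACAAT (9.42% of windows) was in none of the 5. GGGCGG, the core of the GC box, occurred 3 times in the Loxl4 window, 2 times in that of Plod1 and once each in those of Serpinh1 and Pcolce, and 32.7% of windows held it. CCAAT occurred in the Plod3 window alone of the 5 (33.9% of windows). These are matches of letters, not binding sites.

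Along the range of Col9a1 the genes fell into unlike patterns. Loxl4 stood at 1.26, 1.83, 11.8, 75.5 and 172 CPM in E16.5 cells with 0, under 3, 3 to under 10, 10 to under 30, and 30 or more Col9a1 UMIs per 10,000, and at 3.16, 4.15, 30.4, 144 and 295 CPM in the same order at P0. At 13w the same series ran 10.1, 36.7, 68.2, 108 and 145 CPM. Loxl4 was higher in each step from 3 Col9a1 UMIs upward, while the E16.5 values under that limit lay below the 3.48 CPM of blood-marker cells and give no order. Loxl1 ended far lower with the most Col9a1, going from 94.3 to 18.1 CPM at E16.5, 155 to 18.5 CPM at P0 and 70.9 to 10.8 CPM at 13w between cells with 0 and those with 30 or more.

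Lox stood at 434, 533, 366, 146 and 138 CPM over these 5 ranges at P0, highest in cells with little or no Col9a1. At 13w it stood at 88.2, 147, 230, 284 and 230 CPM, lowest in cells without Col9a1. Plod2 was higher with more Col9a1 at E16.5, from 110 to 1052 CPM, and at 13w, from 468 to 1335 CPM. At P0 Plod2 stood at 203, 292, 524, 529 and 448 CPM, with no further step above 3. The range of 30 or more held only 41, 217 and 39 cells.

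**Figure D3:**
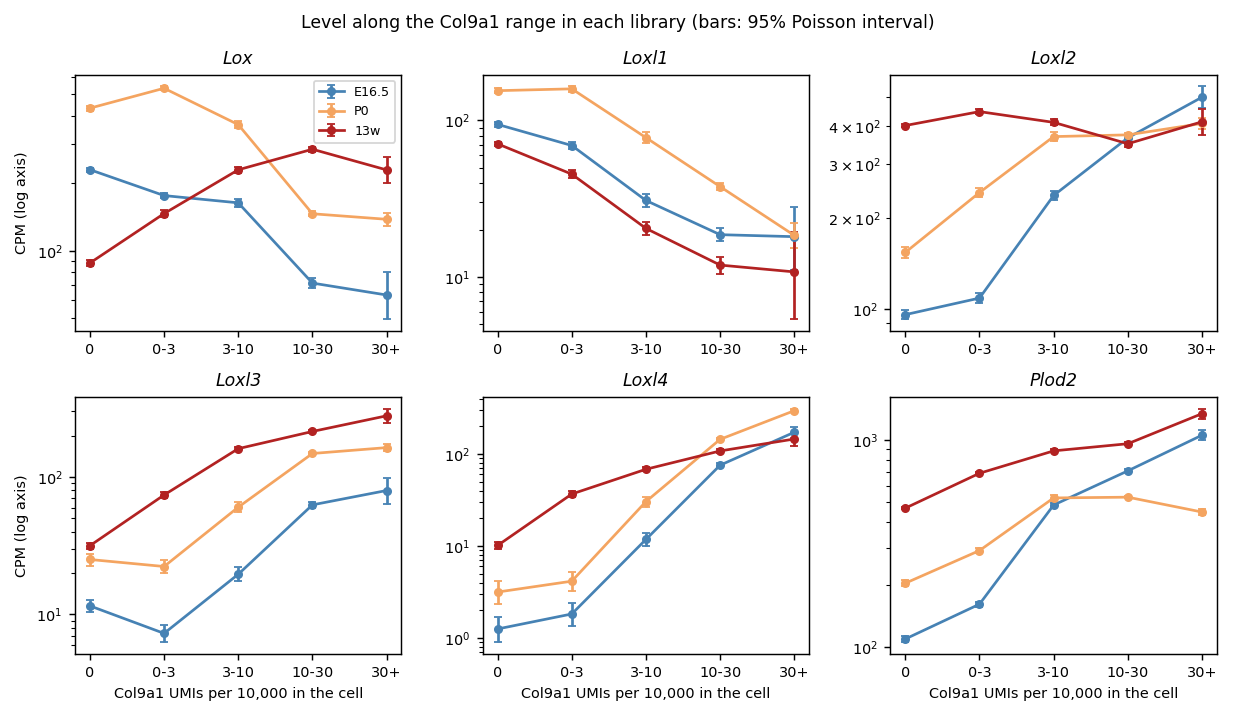
Level of 6 genes in CPM (log axis) in cells grouped by Col9a1 UMIs per 10,000 (5 ranges), for the E16.5, P0 and 13w libraries; bars are 95% Poisson intervals. Loxl4 and Loxl3 are highest in the 30 or more range of each library, Loxl1 is lowest there, and Lox at P0 is lower in the ranges from 10 upward than in those under 10, but at 13w it is lowest without Col9a1.

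The members also differed between Col9a1-high cells with and without Col10a1, the collagen X gene that marks hypertrophic chondrocytes. At least 10 Col10a1 UMIs per 10,000 were found in 249 Col9a1-high cells of the E16.5 library, in 557 of the P0 library and in 187 of the 13w library. Loxl4 stood at 137 CPM in these and 21.6 CPM in the other Col9a1-high cells at E16.5, at 288 and 75.3 CPM at P0, and at 192 and 70.8 CPM at 13w. Lox was lower in the Col10a1 cells at E16.5, with 63.9 against 122 CPM, and at P0, with 132 against 196 CPM. At 13w Lox was higher in them, with 471 CPM (455 to 488) against 217 CPM (212 to 222). Another 96 cells at 13w had that much Col10a1 but were Col9a1-low, and Lox stood at 539 CPM and Loxl4 at 218 CPM in them.

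Without the Col10a1 cells, the 13w Lox level was 217 CPM in Col9a1-high and 93.7 CPM in Col9a1-low cells, and that of Loxl4 was 70.8 and 12.6 CPM. Serpinh1 stood at 2509 CPM in Col10a1 cells and 2422 CPM in the other Col9a1-high cells of the E16.5 library. In the P0 library the same classes stood at 2052 and 2814 CPM, and in the 13w library at 1302 and 2395 CPM. Pcolce stood at 139 against 439 CPM, Plod3 at 45.8 against 95.8 CPM and Plod2 at 661 against 985 CPM at 13w. At P0 the same genes stood at 252 against 402 CPM, 123 against 179 CPM and 329.5 against 611 CPM. The E16.5 values lay nearer each other, at 99.9 against 103 CPM, 106 against 126 CPM and 611 against 645 CPM. Loxl3 stood at 109 against 152 CPM at P0 and 151 against 200 CPM at 13w, but at 54.4 against 44.4 CPM at E16.5. These 13w Col10a1 cells had a median of 36183 UMIs and the other Col9a1-high cells 22413.

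**Figure D4:**
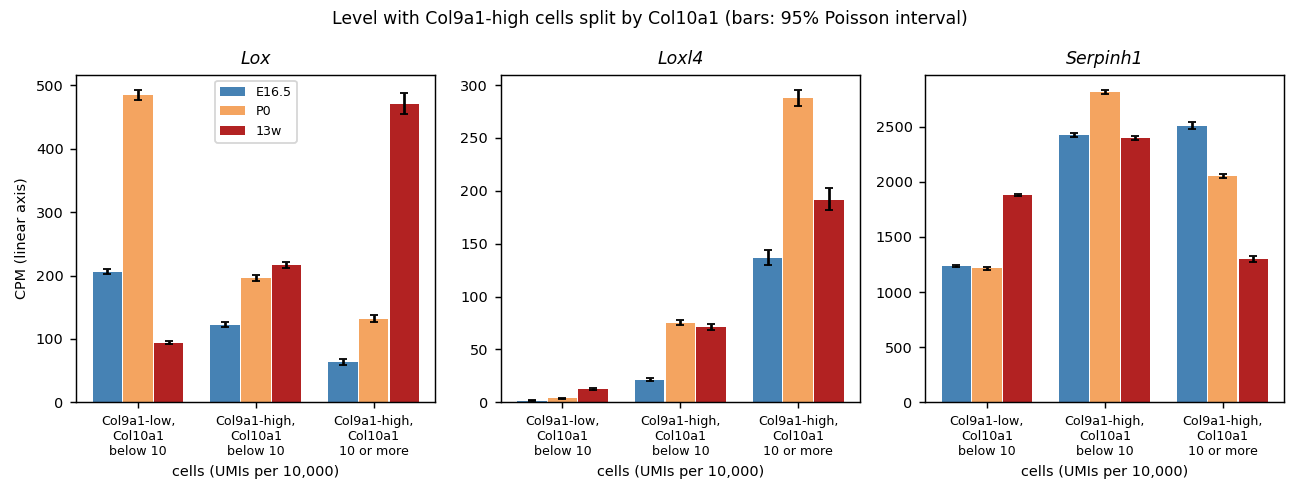
Level of Lox, Loxl4 and Serpinh1 in CPM (linear axis) at E16.5, P0 and 13w, in cells split at 10 Col10a1 UMIs per 10,000. Col9a1-low cells are shown only below that limit, and Col9a1-high cells below it and at or above it. Bars are 95% Poisson intervals. The Lox bar of 13w Col10a1 cells, 471 CPM, stands with the P0 Col9a1-low bar, 484 CPM, and the Serpinh1 bar of 13w Col10a1 cells, 1302 CPM, stands below that of the other Col9a1-high cells.

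Other marker genes picked out cells with little Col9a1. In cells with at least 3 UMIs per 10,000 of Sfrp2, a secreted Wnt modulator of fibroblasts, Loxl1 stood at 139, 239 and 195 CPM at E16.5, P0 and 13w, and Lox at 266, 434 and 96.3 CPM. Prg4 encodes lubricin of the joint surface and passed the same limit in 188 cells at 13w, where Loxl1 stood at 133 CPM and Loxl4 at 2.17 CPM from 3 UMIs. In the 1418 cells at 13w with Cilp2, a gene of the cartilage matrix, Loxl2 stood at 567 CPM and Loxl1 at 58.6 CPM. The 2948 cells with Dpt, a dermatopontin gene of fibroblasts, held 494 CPM of Loxl2 and 717 CPM of Pcolce. In the 133 cells at 13w with Ifitm5, a gene of osteoblasts, Serpinh1 stood at 3307 CPM and Loxl2 at 144 CPM. These groups may overlap, and none was tested against another.

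The second comparison is that of stages. From E16.5 to P0, Loxl3, Loxl4 and Pcolce were higher in all kept cells. The 10 members all had a log2 ratio above 0, and none was called lower. Loxl3 stood at 24.0 CPM at E16.5 and 100.2 CPM at P0 (4.17-fold, log2 2.06, 2.00 to 2.13), Loxl4 at 21.8 and 97.8 CPM (4.48-fold) and Pcolce at 132 and 377 CPM (2.86-fold). Plod1 stood at 83.1 and 159 CPM, Lox at 168 and 278 CPM, Loxl2 at 186 and 319 CPM and Plod3 at 81.5 and 134 CPM, all below 2-fold. Plod2 stood at 325 and 430 CPM, Loxl1 at 60.2 and 79.5 CPM and Serpinh1 at 1700 and 2119 CPM. The 3 members called higher and 0 lower stand beside 5.31% and 8.72% of 8261 genes, and the members' median was 0.75 against -0.13. The share of Col9a1-high cells differed between these libraries, at 22.2% and 43.7%, so the same ratios are given within each class.

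Within Col9a1-high cells Loxl3 (log2 1.55), Loxl4 (log2 1.40) and Pcolce (log2 1.79, 102 to 353 CPM) were again called higher at P0, beside 4.79% of 7680 genes, and 0 members were lower, beside 5.08%. Plod2 had a ratio of -0.29 there and 0.91 in Col9a1-low cells. In Col9a1-low cells Lox (log2 1.23, 206 to 484 CPM), Loxl3 (log2 1.30) and Pcolce (log2 1.50) were higher, beside 5.44% of 8478 genes, and 0 were lower, beside 7.27%. Loxl4 was left out of that count because it stood under 10 CPM at both stages. With TMM or median-of-ratios scaling, 6 members were called higher in Col9a1-low cells, Loxl1, Loxl2 and Plod2 being added.

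From P0 to 13w, the log2 class ratio came nearer 0 for Loxl2, Loxl3, Loxl4, Plod1, Plod2, Plod3 and Serpinh1, and that of Lox went from -1.47 to 1.27. In all kept cells only Loxl4 was called, lower at 45.0 against 97.8 CPM (log2 -1.12). Lox stood at 162 against 278 CPM, Loxl1 at 45.6 against 79.5 CPM and Plod2 at 683 against 430 CPM. No member was called higher (8.46% of 8098 genes were) and 1 was lower (7.93%). That Loxl4 call was lost with TMM scaling (log2 -0.96), with a mitochondrial limit of 5% (log2 -0.96), with the classes weighted equally (log2 -0.43) and without Col10a1 cells (log2 -0.50). Lox, at log2 -0.77 without a call, was called lower with cells thinned to 3000 UMIs (log2 -1.55), with levels averaged over cells (log2 -1.58) and without Col10a1 cells (log2 -1.24), and Loxl1 was called lower with the classes weighted equally (log2 -1.34).

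In Col9a1-high cells Loxl1 was called lower at 13w, at 15.8 against 41.2 CPM (log2 -1.38, -1.51 to -1.26), beside 12.0% of 7631 genes. No member was called higher in these cells, beside 6.97%. Plod2 (0.84), Lox (0.56) and Loxl3 (0.47) had log2 ratios above 0 without a call, Plod3 (-0.88), Loxl4 (-0.67) and Plod1 (-0.57) had ratios below 0, and those of Serpinh1 (-0.21), Pcolce (0.14) and Loxl2 (0.01) lay nearer 0. With TMM scaling Plod2 passed the call at 1.12, and the Serpinh1 ratio was 0.06.

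In Col9a1-low cells 3 members were higher at 13w, beside 9.74% of 8387 genes, and 2 were lower, beside 7.75%. Lox stood at 107 against 484 CPM, 4.52-fold lower (log2 -2.18, -2.22 to -2.14), and Loxl1 at 62.6 against 157 CPM, 2.51-fold lower. Plod2 stood at 539 against 249 CPM (2.17-fold higher) and Loxl2 at 417 against 199 CPM (2.10-fold higher). Loxl4 was called higher there, at 18.7 against 3.67 CPM, and stood at 12.6 CPM at 13w without the cells with Col10a1, beside 15.1 CPM in blood-marker cells. Loxl3 (log2 0.94), Serpinh1 (0.60), Pcolce (0.47), Plod1 (0.35) and Plod3 (0.21) were not called. The calls of Loxl2 and Plod2 were lost with a Col9a1 limit of 10 (log2 0.82 and 0.99), and that of Loxl1 was lost with cells thinned to 3000 UMIs (log2 -0.90). The P0 library is shared by both stage comparisons.

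**Figure D5:**
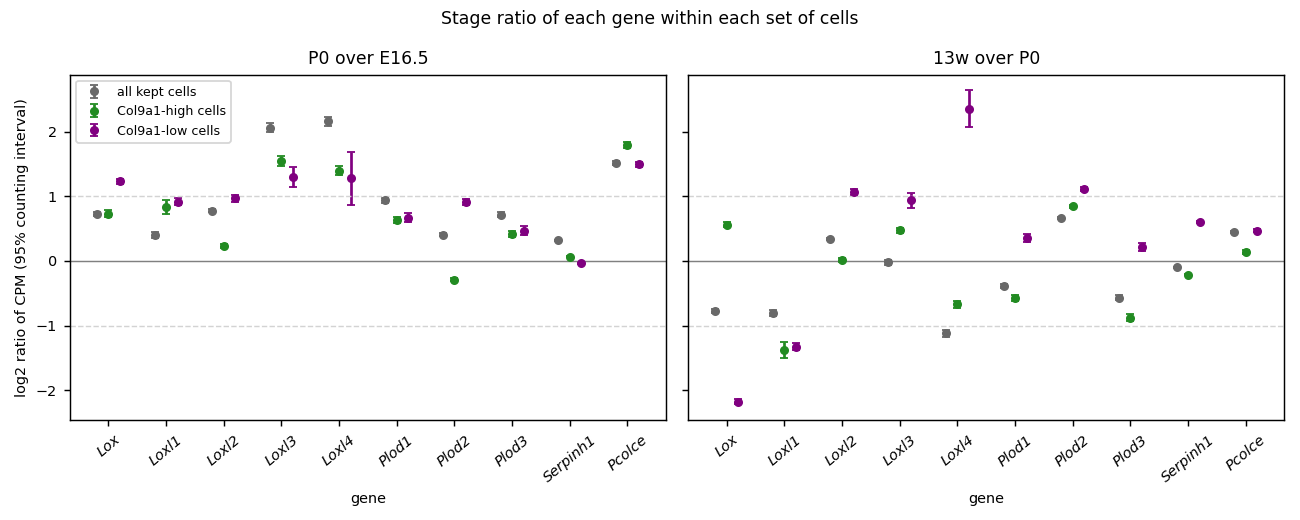
Log2 ratio of P0 over E16.5 and of 13w over P0 for each gene in all kept cells (grey), Col9a1-high cells (green) and Col9a1-low cells (purple), with 95% counting intervals; dashed lines mark a 2-fold ratio. Pcolce lies above 1 in the 3 sets of cells at P0 over E16.5, and Lox lies at 0.56 in Col9a1-high and -2.18 in Col9a1-low cells at 13w over P0.

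Other genes of collagen modification mostly stood with Plod1, Plod2, Plod3 and Serpinh1 in the class test. Of 15 genes for hydroxylation, glycosylation and folding of procollagen, 12 were higher in Col9a1-high cells by edgeR and 1 was lower. Over all genes tested, 11.3% were higher and 14.9% lower. The median log2 ratio of the list was 1.09, beside -0.04 over all genes tested. Colgalt2, a collagen galactosyltransferase, had the highest estimate (log2 3.03, SE 0.53, edgeR adjusted p = 0.02), followed by the prolyl 3-hydroxylase P3h2 (log2 2.61, SE 0.45). The Colgalt2 estimate rests on very low levels in Col9a1-low cells, 3.03 CPM at E16.5 and 2.45 CPM at P0. At 13w Colgalt2 stood at 35.0 CPM in Col9a1-high and 15.3 CPM in Col9a1-low cells, 2.29-fold apart. P4ha3, a subunit of prolyl 4-hydroxylase, was the one that was lower (log2 -2.16, SE 0.15, edgeR adjusted p = 0.0057), with 11.5 CPM in Col9a1-high and 67.5 CPM in Col9a1-low cells at P0. At 13w over P0 in Col9a1-high cells 3 of the 15 were called lower and 0 higher, beside 12.0% and 6.97% of all measured genes: P3h1 (288 to 132 CPM), P4hb (1120 to 532 CPM) and Fkbp10 (402 to 200.3 CPM), which encode a prolyl 3-hydroxylase, the other prolyl 4-hydroxylase subunit and a folding factor. Their log2 ratios in plain CPM, -1.125, -1.073 and -1.006, lay near the limit. TMM scaling moved the ratios of all genes in this comparison up by a median of 0.27.

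Of 15 genes of export and procollagen processing 14 were tested. In Col9a1-high cells 6 were higher and 2 lower, beside 11.3% and 14.9% of all genes tested. Pcolce2, the second enhancer gene, was higher (log2 4.28, SE 0.22, edgeR adjusted p = 0.0041), unlike Pcolce. It stood at 194, 241 and 941 CPM in Col9a1-high and at 13.8, 10.5 and 77.7 CPM in Col9a1-low cells. Of the N-propeptide proteinases, Adamts3 was higher (log2 2.82) and Adamts2 lower (log2 -2.08, adjusted p = 0.009 by edgeR). Both estimates rest on low levels in the lower class. Adamts3 stood at 4.2, 2.38 and 7.71 CPM in Col9a1-low cells at E16.5, P0 and 13w. Adamts2 stood at 1.72 and 7.995 CPM in Col9a1-high cells at P0 and 13w. Bmp1, the C-proteinase gene, was not called by class (log2 0.37) but was higher at P0 than at E16.5 in Col9a1-high cells, at 68.6 against 21.8 CPM.

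The substrates were split. Of 11 fibrillar collagen genes 4 were higher in Col9a1-high cells by edgeR, among them Col2a1 (log2 5.66), Col11a2 (log2 4.54) and Col11a1 (log2 3.84), and 2 were lower, Col5a3 (log2 -3.25) and Col3a1 (log2 -1.44). These counts stand beside 11.3% higher and 14.9% lower of all genes tested. Col1a1 (log2 0.13) and Col1a2 (log2 0.16) did not pass. By stage, 7 of the 11 were higher and 0 lower at P0 than at E16.5 in all kept cells (beside 5.31% and 8.72% of measured genes), and 5 were higher and 1 lower at 13w than at P0 (beside 8.46% and 7.93%). The share of Col9a1-high cells differed between the libraries. Within Col9a1-high cells 2 of 9 measured were higher at P0 and 0 lower (beside 4.79% and 5.08%). In Col9a1-low cells 6 of 11 were higher and 0 lower (beside 5.44% and 7.27%). At 13w over P0 the class counts were 6 of 10 and 5 of 11 higher (beside 6.97% and 9.74%), with 0 lower in each (beside 12.0% and 7.75%). Col1a1 stood at 3559 CPM at P0 and 12470 CPM at 13w in Col9a1-high cells, while Serpinh1 stood at 2567 and 2216 CPM there.

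Of 16 genes of elastic fibres and of proteins that bind lysyl oxidases, 10 were lower and 3 higher in Col9a1-high cells. Beside these, 14.9% of all genes tested were lower and 11.3% higher. The median log2 ratio of the list was -2.64. Fbn2, a fibrillin gene, was lower (log2 -4.14, SE 0.18, edgeR adjusted p = 0.0041), and so were Fbln5, Mfap5 and Postn. Efemp2 (log2 1.43), which encodes fibulin 4, Emilin1 (log2 1.10) and Fn1 (log2 1.59), which encodes fibronectin, were higher. Eln, the elastin gene, stood at 10.5 against 162 CPM at E16.5 and 5.12 against 92.8 CPM at P0, and its edgeR adjusted p was 0.080. At 13w over P0 in Col9a1-low cells, where Lox and Loxl1 were lower, 7 of 14 measured genes of this list were also lower and 4 higher, beside 7.75% and 9.74% of all measured genes. Eln stood at 4.09 against 92.8 CPM, Mfap4 at 11.7 against 160 CPM and Fbn2 at 0.418 against 266 CPM. The 4 higher genes were Fmod (3515 against 375 CPM), Fn1 (3169 against 408 CPM), Lum (1460 against 391 CPM) and Postn (4332 against 1686 CPM).

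Of 5 genes for the supply of copper, ascorbate and zinc, 2 were higher in Col9a1-high cells and 0 lower: the copper importer Slc31a1 (log2 1.21, SE 0.14, edgeR adjusted p = 0.01) and the zinc transporter Slc39a13 (log2 1.01). Of 12 genes of the hypoxia response 4 were higher, Bnip3 (log2 2.04), Pgk1 (log2 1.76), Slc2a1 (log2 1.53) and Ldha (log2 1.22), and 0 were lower. The counts of both lists stand beside 11.3% higher and 14.9% lower of all genes tested. Vegfa (log2 -0.36) and Ndrg1 (log2 -0.79) did not pass. In Col9a1-high cells at P0 over E16.5, 4 of 10 measured hypoxia genes were lower and 1 higher (beside 5.08% and 4.79% of 7680 genes). The glucose transporter gene Slc2a1 stood at 33.1 against 129 CPM, and Car9, the higher one, at 24.9 against 7.29 CPM. Plod2, often listed with hypoxia genes, stood at 520 against 635 CPM. A link between Plod2 and these genes was not tested.

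For each member the genes of most similar profile were sought over 15 pools, the 5 Col9a1 ranges in 3 libraries, as the smallest root mean square distance of centred log2 values among 4331 genes. The pools share libraries and depth, so these distances are a description. Nearest to Loxl4 were Foxa3 (0.55 log2 units), Col9a3 (0.56) and Slc38a3 (0.59), and nearest to Loxl3 were Grrp1 (0.30), Ramp1 (0.33) and S100a1 (0.44). Loxl1 was nearest to Lima1 (0.34), Ptgfrn (0.40) and Mylk (0.43), Serpinh1 to Dnajc25 (0.11), Clptm1l (0.13) and Derl1 (0.13), and Plod2 to Slc39a14 (0.26), Pde4dip (0.34) and Phtf2 (0.38). Plod1 was nearest to Prrc1 (0.16), Plod3 to Gpc1 (0.18), Loxl2 to Pdlim5 (0.26) and Pcolce to Tnfrsf1a (0.27). Lox was nearest to Zyx, at 0.53, which was slightly closer than Foxa3 was to Loxl4. The Lox profile varied less than that of Loxl4, with an SD of 0.86 against 2.28 log2 units. Relative to that spread, the nearest gene to Lox was therefore less close than the nearest to Loxl4.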

How the data were processed

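Single-cell libraries of 3 stages were analysed from the count matrices the authors deposited, in which whole UMIs are given for each gene and barcode with no normalization. The file headers name Cell Ranger 6.1.2, and GRCm39 is the build named by the submitters' processing notes. Barcodes had been limited to called cells, and further filters are not given in the sources used here. Members were read by symbol, cells were kept by gene number and mitochondrial share, and raw UMIs were summed per library and class. Kept UMIs totalled 100546288 (E16.5), 94002214 (P0) and 113130140 (13w).

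Stage ratios compare 1 library with another and have no test. The class test used edgeR 4.0.16 (R 4.3.3, TMM, filterByExpr, Benjamini-Hochberg adjustment over all genes, threshold 0.05) on 6 pools with library as block, since the paired pools come from the same library. DESeq2 1.42.0 was an alternative. Sums and intervals used Python 3.11.15 and scipy 1.17.1.

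Doublets were not removed. An automatic Scrublet threshold marked at most 0.11% of a library's cells and was taken not to have worked, so an alternative removed the highest scores at 0.8% per 1000 cells. Thinned shares leave out cells with fewer than 3000 UMIs.

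The members, gene lists and marker genes were chosen with earlier results of these data known. All members are given, and from each list every count and up to 3 genes with the largest ratios in a comparison. Further genes of the lists and the marker-gene groups described were chosen after their values were seen. Reads shared between near-identical or overlapping genes were not resolved. The reference held for this work is build GRCm38, so gene coordinates are given only for RefSeq promoters of that build.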

Additional observations from a re-analysis of the deposited data

Results flagged for a closer look

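Lox was the 1 member called in opposite directions by cell class: its log2 ratio of Col9a1-high over Col9a1-low cells was -1.465 at P0 and 1.269 at 13w. The difference between the libraries was not tested, because each stage is a single library.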

How the results depend on the processing

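No called value of a member changed direction under any alternative run, and of 1080 values of members 42 gained a call and 39 lost one. Of 216 counts of members called, 194 stayed within 1.5 times. Removing likely doublets changed no call. A Col9a1 limit of 1 took the E16.5 class call from Plod1 (log2 0.99) and gave Plod2 one at P0 over E16.5 in Col9a1-low cells (log2 1.02). Leaving out Col10a1 cells, chosen after seeing the data, gave calls to Loxl2 by class at P0 (log2 1.06) and Plod1 at P0 over E16.5 in all kept cells (log2 1.04), and at 13w over P0 Lox took the place of Loxl4. TMM and median-of-ratios scaling each gave 6 members higher at P0 over E16.5 in Col9a1-low cells, 0 lower at 13w over P0 in all kept cells and 1 higher at 13w over P0 in Col9a1-high cells. A mitochondrial limit of 5% gave 0 lower at 13w over P0 in all kept cells. With cells thinned to 3000 UMIs 2 members were lower there, 1 lower in Col9a1-low cells at 13w over P0 and 2 lower by class at E16.5, and averaging over cells gave 2, 1 in Col9a1-low cells and 2 lower in Col9a1-high cells at 13w over P0. A Col9a1 limit of 10 gave 2 lower by class at E16.5 and 2 higher at P0, and leaving out cells with blood, endothelial, mural or muscle markers gave 2 lower at E16.5, with Lox added at a log2 ratio of -1.05, and took the P0 call from Plod3 (log2 0.996) beside its call in the test over 3 libraries. The Lox class ratio ranged from -1.66 to -1.19 at P0 and from 1.09 to 1.65 at 13w. In that test, the fit without the replicate block (library) called 0 members higher and 0 lower (6 at an unadjusted p under 0.05) and 63 genes higher and 36 lower in place of 1875 and 2461. Plain totals gave 971 and 4135 genes, and 5 members. Leaving out each library in turn gave 0 to 7 members higher and 0 to 2 lower: 227 and 325 genes were called without E16.5, 0 without P0 and 3200 and 3285 without 13w, each with fewer samples. Other causes were not tested. TMM scaling moved the median ratio of all genes by up to 0.33 and raised the share of calls that were higher from 37.9% to 59.9% (P0 over E16.5, all kept cells), 42.8% to 61.2% (Col9a1-low), 51.6% to 65.0% (13w over P0, all kept cells), 36.7% to 61.7% (Col9a1-high), 55.7% to 67.9% (Col9a1-low), and by class from 38.0% to 60.7% (E16.5), 42.3% to 60.2% (P0) and 25.7% to 47.7% (13w). Loxl4 in Col9a1-low cells at E16.5 rested on 94 UMIs and was not above its level in blood-marker cells.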
